A study of Mus musculus with 12 samples.

Results

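Hepatic stellate cells were followed through 10 of their genes, the quiescence markers Lrat, Reln, Des and Hgf and the activation genes Acta2, Tagln, Pdgfrb, Tgfb1, Ccn2 and Postn. The genes were chosen by name from what is known of the cell type, with earlier results of these data known. Of the 52636 genes in the count tables, all 10 were among the 12453 genes with a mean of at least 12 counts per library. RNA-seq was performed on the left lateral liver lobe of male C57Bl/6J offspring at 16 weeks of age. The 6 VDD-F1 mice were born to dams on a vitamin D deficient (VDD) diet with added calcium gluconate, and the 6 VDS-F1 mice to dams on a nutrient-matched vitamin D sufficient (VDS) diet. The dams received their diet from before mating through pregnancy and were mated to males on the control diet. All dams after delivery, and all offspring after weaning, received the VDS diet, so that every mouse in both groups was on the same diet when its liver was taken. Litters are not given in the labels, so the p-values reported here rest on the spread between these mice and do not account for siblings.

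The stellate cell lies between hepatocytes and the sinusoidal endothelium and stores vitamin A as retinyl esters, which Lrat, lecithin retinol acyltransferase, makes from retinol. After liver injury it can lose its retinoid droplets and become a contractile, matrix-producing myofibroblast, driven by platelet-derived growth factor (PDGF) through Pdgfrb and by transforming growth factor beta (TGF-beta), the product of Tgfb1. Acta2 and Tagln encode proteins of the contractile apparatus and are also expressed by vascular smooth muscle, so that in liver tissue these transcripts do not come from stellate cells alone.

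Between 14275793 and 20815066 fragments per library were assigned to genes on the sense strand. The 7 hepatocyte markers tested, albumin among them, summed to 82286 to 110530 CPM per library. The VDS6 library had 11.1% of its fragments outside annotated genes, against 2.52 to 4.94% in the other libraries. In the study's supplement a liver weight is shown for 3 VDD-F1 mice (VDD4 to VDD6) and 4 VDS-F1 mice (VDS3 to VDS6) and not for VDD1 to VDD3, VDS1 and VDS2, matched to the libraries by number. What separated these sets of mice is not given in the sources used here. At unadjusted p under 0.05, Tagln and Postn were lower in the mice with a recorded weight than in the others with diet as a covariate. Of all genes tested, 7.99% were lower at this threshold. Neither gene passed after adjustment (adjusted p = 0.2555 for Tagln and 0.114 for Postn from edgeR). The diet comparison of the 10 genes is given for all mice and within each set. These sets were chosen with earlier results of these data known.

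The liver contained the stellate markers at low to moderate levels. To compare different genes approximately, CPM (counts scaled to a common library size) were divided by the exon length in kilobases. This length merges the exons of all annotated transcripts of a gene. Levels of genes with exons outside the expressed transcripts are thus understated. On this scale Reln was the highest on average in VDS-F1 mice at 5.94 ± 0.319 (SD, n = 6). Reln encodes reelin, a secreted glycoprotein that in liver marks stellate cells. Ccn2, which encodes connective tissue growth factor, followed at 5.06 ± 3.25 and Lrat at 3.65 ± 0.698 (SD, n = 6 each). Pdgfrb, the receptor for PDGF-B, was at 3.10 ± 0.981, and Tgfb1 at 2.66 ± 0.492 (SD, n = 6 each). Tagln, which encodes transgelin, was at 2.42 ± 1.40, and Hgf, the hepatocyte growth factor gene, at 2.19 ± 0.572 (SD, n = 6 each). Des, the muscle intermediate filament gene, was at 1.16 ± 0.420, and Acta2, alpha smooth muscle actin, at 0.930 ± 0.789 (SD, n = 6 each). The lowest on this scale was Postn, periostin, at 0.732 ± 0.133 (SD, n = 6). Without division by length, the VDS-F1 mean of Postn (6.37 CPM) was above those of Des (4.34 CPM) and Acta2 (2.04 CPM). Apart from Hgf, which was above Des in 11 of 12 mice, neighbours in this order were not separated beyond the spread between mice. Each of the other pairs held its order in only 6 to 8 of the 12 mice.

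**Figure D1:**
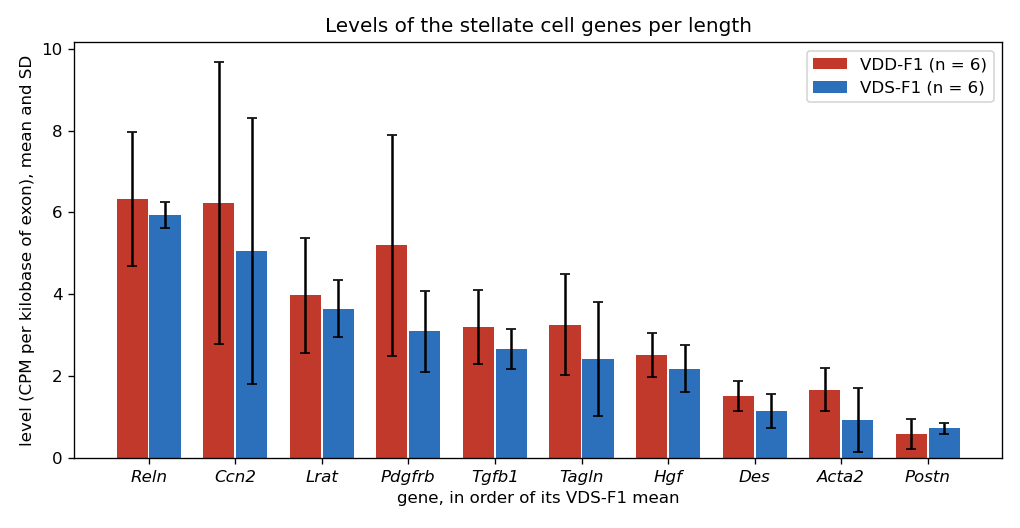
Levels of the 10 genes in CPM per kilobase of exon, as mean (bar) and SD (line) of 6 VDD-F1 (red) and 6 VDS-F1 (blue) mice, ordered by the VDS-F1 mean. Reln and Ccn2 are the highest, and the VDS-F1 SD is 3.25 for Ccn2 and 0.319 for Reln.

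The quiescence genes differed little between the maternal diets. Across all 12 mice the log2-fold changes of VDD-F1 over VDS-F1 were 0.12 ± 0.21 for Lrat, 0.09 ± 0.14 for Reln, 0.39 ± 0.23 for Des and 0.20 ± 0.17 for Hgf (± SE), and none passed the test (adjusted p = 0.443 to 0.820, by the quasi-likelihood test of edgeR and Benjamini-Hochberg adjustment over every gene tested). In bulk tissue, a different number of stellate cells and a different amount of RNA per cell cannot be told apart. The intervals of 1.96 SE around these values ran from -0.28 to 0.53 for Lrat and from -0.18 to 0.36 for Reln, and from -0.07 to 0.85 for Des and from -0.14 to 0.54 for Hgf.

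Lrat (ENSMUSG00000028003.6, GRCm38 chr3:82892579-82903973, minus strand) ranged from 12.9 to 30.9 CPM in VDD-F1 mice with a median of 19.1, and from 14.8 to 24.7 CPM in VDS-F1 mice with a median of 20.3. VDD3 and VDD6 were the highest of all mice and VDD2 the lowest, so that VDD-F1 mice lay at both ends of the range. The sign of the Lrat difference depended on a single mouse, with log2-fold changes of -0.0033 without VDD3 and -0.015 without VDD6. Reln was more even in VDS-F1, where it varied from 131 to 150 CPM (median 140), than in VDD-F1, where it varied from 115 to 218 CPM (median 141). The coefficient of variation was 5.37% and 25.8%, and VDD2 (218 CPM) and VDD3 (170 CPM) lay above all VDS-F1 mice. Without VDD2 the log2-fold change of Reln was -0.04.

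Des was between 3.85 and 7.57 CPM in VDD-F1 (median 5.41) and between 3.09 and 6.66 CPM in VDS-F1 (median 3.62). The 3 mice VDS3 to VDS5, all with a recorded weight, were below every VDD-F1 mouse, and VDS1, VDS2 and VDS6 lay among the VDD-F1 mice. Hgf, through which stellate cells signal to the Met receptor of hepatocytes, was between 13.6 and 25.2 CPM in VDD-F1 (median 17.3) and between 10.8 and 23.0 CPM in VDS-F1 (median 15.1). Leaving out 1 mouse gave log2-fold changes of 0.076 (without VDD2) to 0.34 (without VDS1) for Hgf. VDD2 was the highest for Des and Hgf as well as for Reln. Of the 100-base windows of the Hgf transcripts, 5.29% were shared with another gene, which had a mean of 1.08 counts.

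Among the activation genes, 5 of 6 had higher and Postn had a lower average in VDD-F1, and none of the 10 genes was a differentially expressed gene (DEG), defined by an adjusted p under 0.05 together with an absolute log2-fold change over 1. DEGs made up 0.0402% of all genes tested with edgeR. DESeq2 also gave 0 of the 10, against 2.03% of all genes tested, and limma voom with sample weights gave 1, Acta2, against 2.02%. At an unadjusted p under 0.05, 1 of the 10 genes, Pdgfrb, was higher and 0 were lower, against 9.55% of all genes tested that were higher and 6.29% that were lower. By voom 4 were higher and 1 lower, against 12.3% and 10.5% of all genes, and leaving out 1 mouse in edgeR gave 0 to 5 higher, with 5 without VDS1. In none of the 10 genes were all VDD-F1 mice above or all below the VDS-F1 mice, which was the case in 1.18% of all genes tested. The median log2-fold change was 0.16 for the 4 quiescence genes and 0.36 for the 6 activation genes, and 0.0041 for all genes tested.

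Pdgfrb was measured at 12.9, 50.2, 14.5, 40.5, 29.97 and 22.7 CPM in VDD1 to VDD6 and at 23.3, 12.9, 14.7, 13.5, 13.0 and 24.3 CPM in VDS1 to VDS6. VDD2, VDD4 and VDD5 were above every VDS-F1 mouse, while VDD1 and VDD3 lay at the level of the lower VDS-F1 mice. The log2-fold change was 0.75 ± 0.31 (SE, adjusted p = 0.265 from edgeR). Pdgfrb is ENSMUSG00000024620.11, at GRCm38 chr18:61045150-61085061 on the plus strand. Leaving out VDD2, the highest mouse, lowered it to 0.51 and raised the unadjusted p above 0.05, as did leaving out VDD4, VDS2, VDS3, VDS4 or VDS5 in turn.

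Acta2 was at 1.70, 3.60, 4.14, 5.22, 3.89 and 3.45 CPM in VDD1 to VDD6 and at 5.08, 3.07, 0.619, 0.728, 1.18 and 1.57 CPM in VDS1 to VDS6. The 4 VDS-F1 mice with a recorded weight were the lowest of all 12 mice, and the other VDS-F1 mice lay within the range of VDD-F1. Acta2 (ENSMUSG00000035783.8, GRCm38 chr19:34241090-34255590, minus strand) had only 9 to 103 counts per library. The log2-fold change over all mice was 0.82 ± 0.45 (SE, adjusted p = 0.394 from edgeR). Limma voom with sample quality weights gave 1.63 (adjusted p = 0.0345), and leaving out VDS1 gave 1.35 (adjusted p = 0.132 in edgeR), whereas the adjusted p in the other edgeR and DESeq2 fits of all 12 mice was 0.280 to 0.415.

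Tagln ranged from 2.84 to 9.76 CPM in VDD-F1 (median 6.25) and from 2.61 to 9.72 CPM in VDS-F1 (median 3.69). VDD2 and VDS1 had almost the same, highest levels. Its log2-fold change was 0.42 ± 0.35 (SE, adjusted p = 0.591 from edgeR), and 0.26 without VDD2 to 0.76 without VDS1. Tagln overlaps an antisense RNA and the end of Pcsk7 on the other strand, and a count that ignores strand assigned it a mean of only 5 counts against 98.3 on its own strand, so its values depend on the strand-specific count.

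Tgfb1, the ligand that drives the matrix programme of activated stellate cells, varied from 11.5 to 24.8 CPM in VDD-F1 (median 15.02) and from 8.84 to 15.9 CPM in VDS-F1 (median 13.7). VDD2 and VDD5 lay above the highest VDS-F1 mouse and the other mice of both diets overlapped (log2-fold change 0.27 ± 0.18 (SE), adjusted p = 0.482 from edgeR). Without VDD2 the log2-fold change of Tgfb1 was 0.11. Ccn2, a secreted matricellular protein and a common target gene of TGF-beta and of the YAP and TEAD factors, varied from 4.23 to 30.3 CPM in VDD-F1 (median 18.3), where its highest level was 7.17 times its lowest, the widest ratio of the 10 genes among VDD-F1 mice, and from 4.67 to 27.2 CPM in VDS-F1 (median 12.6). Postn, a matricellular protein made by activated fibroblasts, varied from 1.85 to 9.04 CPM in VDD-F1 (median 4.73) and from 4.60 to 8.12 CPM in VDS-F1 (median 6.48). Their log2-fold changes over all mice were 0.30 ± 0.47 for Ccn2 and -0.33 ± 0.35 for Postn (SE, adjusted p = 0.803 and 0.687 from edgeR). Leaving out 1 mouse gave 0.076 (without VDD5) to 0.58 (without VDS1) for Ccn2 and -0.57 (without VDD3) to -0.16 (without VDD4) for Postn. Ccn2 (ENSMUSG00000019997.11, GRCm38 chr10:24595442-24598683, plus strand) overlaps an RNA on the other strand, and its mean of 283 counts was 144 when strand was ignored. Postn is ENSMUSG00000027750.16, at GRCm38 chr3:54361109-54391037 on the plus strand. The VDD-F1 mice with a recorded weight were all below the other VDD-F1 mice for Postn and all above them for Ccn2.

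**Figure D2:**
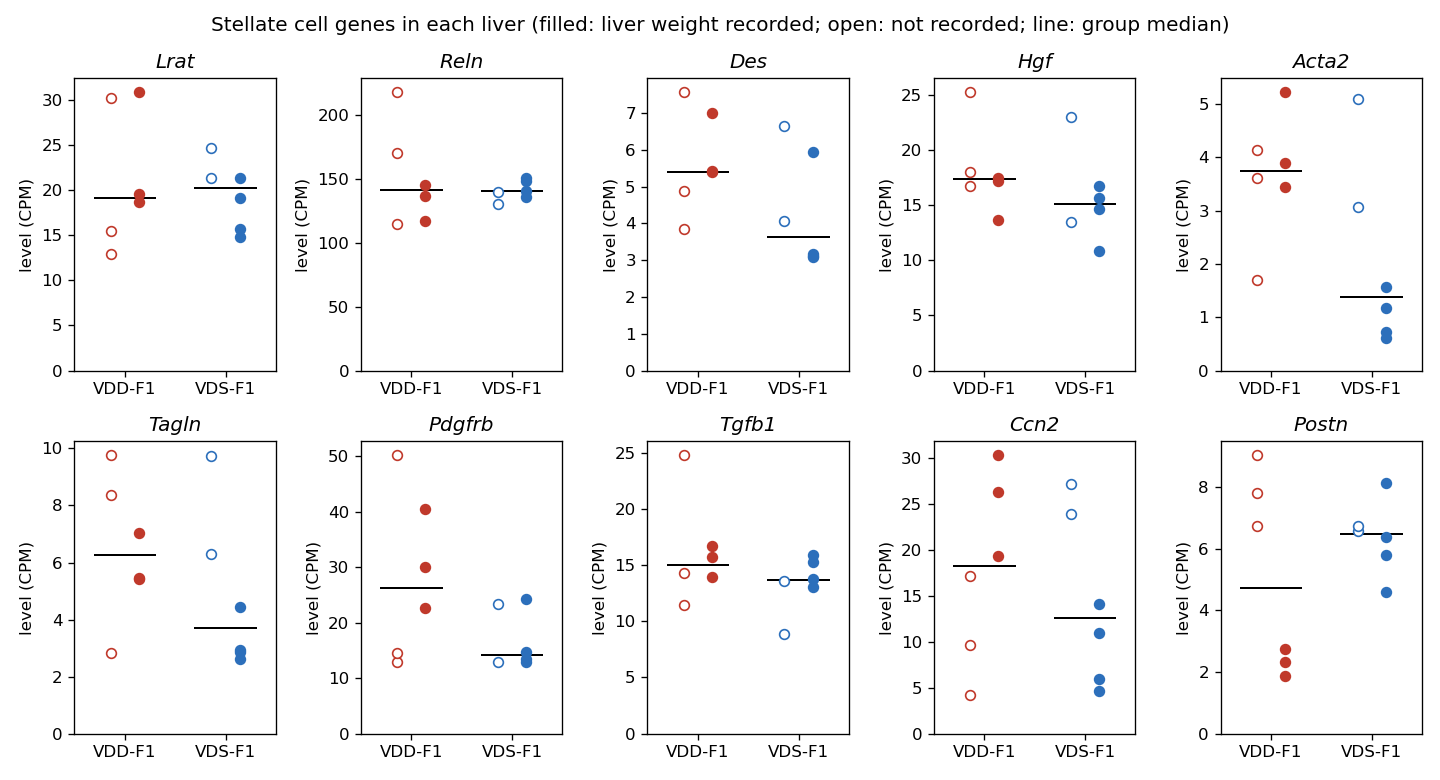
Level of each gene in every liver (CPM, each axis from 0), with VDD-F1 in red, VDS-F1 in blue, filled points for mice with a recorded liver weight, open points for the others and a line at the group median. In Acta2 the 4 filled VDS-F1 points lie under all VDD-F1 points, from 0.619 to 1.57 CPM, and in Postn the 3 filled VDD-F1 points lie under all other mice, from 1.85 to 2.73 CPM.

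Among the mice with a recorded liver weight, the contractile and matricellular genes separated by maternal diet. Acta2 and Ccn2 were higher and Postn was lower in the 3 VDD-F1 than in the 4 VDS-F1 mice, and these were 3 DEGs of 10, against 4.33% of the 12369 genes tested in this set. At an adjusted p under 0.05, Tagln and Pdgfrb were higher as well, which makes 4 of 10 genes higher and 1 lower, against 5.87% of all genes tested that were higher and 5.11% that were lower. No quiescence gene passed this threshold in edgeR or DESeq2, whereas limma voom with sample weights also called Des higher (log2-fold change 0.78, adjusted p = 0.0314), against 7.49% of all genes tested that were higher by voom.

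Acta2 was at 5.22, 3.89 and 3.45 CPM in VDD4 to VDD6 and at 0.619, 0.728, 1.18 and 1.57 CPM in VDS3 to VDS6. The groups did not overlap, and the log2-fold change was 2.03 ± 0.33 (SE, adjusted p = 0.0026 from edgeR). Ccn2 was at 19.4, 30.3 and 26.3 CPM in VDD4 to VDD6 against 4.67, 5.93, 14.2 and 10.9 CPM in VDS3 to VDS6, without overlap. Its log2-fold change was 1.52 ± 0.31 (SE, adjusted p = 0.0086 from edgeR), and a robust edgeR fit gave an adjusted p of 0.0532. Postn was at 1.85, 2.73 and 2.33 CPM in VDD4 to VDD6 and at 4.60, 6.40, 8.12 and 5.79 CPM in VDS3 to VDS6. It moved opposite to Acta2 and Ccn2, again without overlap, with a log2-fold change of -1.42 ± 0.25 (SE, adjusted p = 0.0036 from edgeR).

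Tagln was at 5.42, 5.47 and 7.04 CPM in VDD4 to VDD6 and at 2.61, 2.86, 4.44 and 2.93 CPM in VDS3 to VDS6, so that these groups did not overlap either. Acta2, Tagln and Ccn2 were thus above and Postn below every VDS-F1 mouse, in a comparison in which 11.9% of all genes tested lay above and 11.5% below. The log2-fold change of Tagln was 0.90 ± 0.23 (SE, adjusted p = 0.0265) and that of Pdgfrb 0.92 ± 0.23 (SE, adjusted p = 0.0268, both from edgeR). In Pdgfrb the groups overlapped because VDS6, at 24.3 CPM, was above VDD6, at 22.7 CPM. The calls of these genes depended on single mice. Without 1 of the 7 mice the adjusted p in edgeR ranged up to 0.120 for Tagln and 0.118 for Pdgfrb, whereas it stayed at or under 0.0494 for Acta2, Ccn2 and Postn.

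Of the remaining genes, Des had a log2-fold change of 0.63 ± 0.26 (SE, adjusted p = 0.145 from edgeR) in these 7 mice, which became 0.91 (adjusted p = 0.0116) without VDS6, the VDS-F1 mouse with the most fragments outside genes. Lrat had 0.38 ± 0.19, Hgf 0.15 ± 0.16, Reln -0.11 ± 0.09 and Tgfb1 0.09 ± 0.13 (SE, adjusted p = 0.239, 0.60, 0.489 and 0.694 from edgeR). The interval of 1.96 SE for Reln ran from -0.29 to 0.07 and that for Tgfb1 from -0.15 to 0.34.

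Among the mice without a recorded liver weight, Ccn2 pointed the other way. It was at 4.23, 9.60 and 17.2 CPM in VDD1 to VDD3 and at 27.2 and 23.9 CPM in VDS1 and VDS2, lower in all 3 VDD-F1 mice. Its log2-fold change was -1.31 ± 0.48 (SE, adjusted p = 0.9998 from edgeR), and it was the only 1 of the 10 genes at an unadjusted p under 0.05, where 1.72% of the 12541 genes tested were lower. Acta2 was at 1.70, 3.60 and 4.14 CPM in VDD1 to VDD3 and at 5.08 and 3.07 CPM in VDS1 and VDS2, and Tagln at 2.84, 9.76 and 8.36 CPM against 9.72 and 6.31 CPM. Both overlapped, with log2-fold changes of -0.38 ± 0.47 and -0.20 ± 0.50 (SE, adjusted p = 0.9998 each from edgeR).

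Postn in these mice was at 7.83, 6.73 and 9.04 CPM in VDD1 to VDD3 and at 6.56 and 6.73 CPM in VDS1 and VDS2. VDD2 and VDS2 were equal to the precision given, and the log2-fold change was 0.24 ± 0.24 (SE, adjusted p = 0.9998 from edgeR). By the unrounded values every VDD-F1 mouse was above both VDS-F1 mice for Postn and below both for Ccn2, which in this small set was true of 8.97% and 9.49% of all genes tested. The other 6 genes had log2-fold changes between -0.24 for Lrat and 0.60 for Tgfb1, and no DEG was found among all genes in these 5 mice by edgeR (473 of 12541 at an unadjusted p under 0.05) or voom. DESeq2 gave 25 DEGs, of which 0 were among the 10 genes.

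The difference between the sets in the effect of diet was tested as an interaction over all 12 mice. It was 2.41 ± 0.58 on the log2 scale for Acta2, 2.83 ± 0.63 for Ccn2 and -1.66 ± 0.34 for Postn (± SE, edgeR). These were 3 of 10 genes at an unadjusted p under 0.05, against 9.01% of all genes tested. The adjusted p-values over all genes were 0.178, 0.145 and 0.114, so that none of the 10 passed, and 0.0883% of all genes did. Without VDD2, the mouse with the highest level of 6 of the 10 genes, the adjusted p in edgeR was 0.0426 for Acta2, 0.0400 for Ccn2 and 0.0182 for Postn. Without any other single mouse none of these passed, and the adjusted p in edgeR was 0.117 to 0.616 for Acta2, 0.104 to 0.410 for Ccn2 and 0.117 to 0.388 for Postn. For Tagln the interaction was 1.099 ± 0.54 (SE, adjusted p = 0.576 from edgeR), and the other 6 genes had an adjusted p of 0.703 or more.

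**Figure D3:**
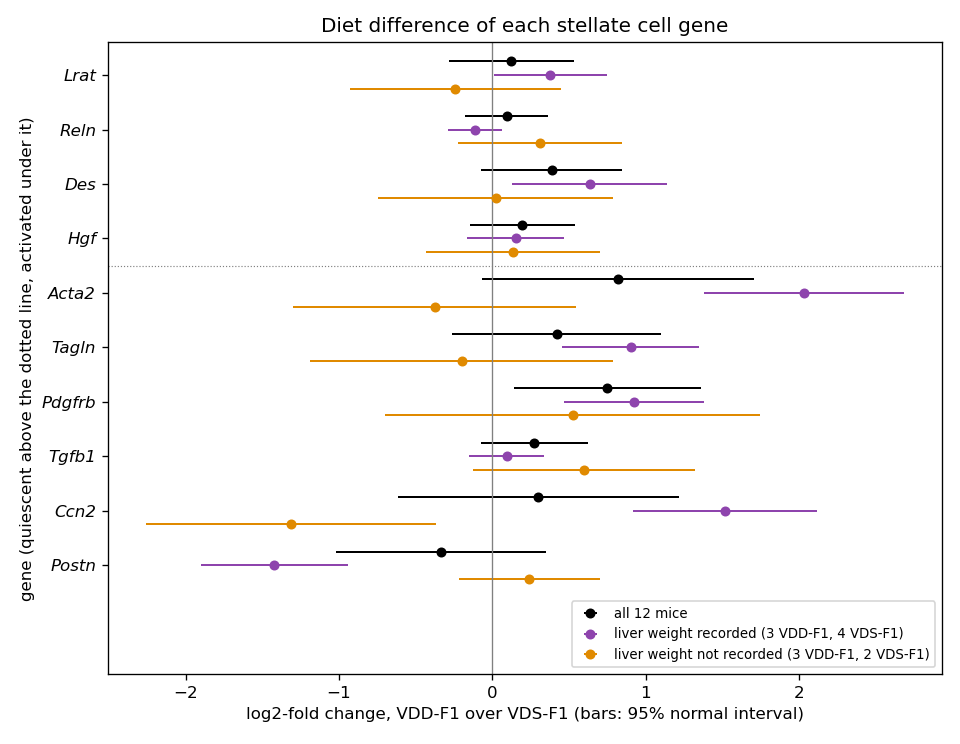
Log2-fold change of VDD-F1 over VDS-F1 for each gene with bars of 1.96 SE, from edgeR fits of all 12 mice (black), of the 7 mice with a recorded liver weight (purple) and of the 5 mice without (orange). The purple and orange bars are apart for Acta2, Ccn2 and Postn and overlap for the 7 other genes.

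The core promoters of Acta2 and Postn are shown because these genes moved in opposite directions in the same mice. Sequences of 300 bases around the transcription start were taken from RefSeq (GRCm38.p6) for 7 of the 10 genes, Lrat, Reln, Des, Hgf, Acta2, Tgfb1 and Postn, and those of Tagln, Ccn2 and Pdgfrb were not used here. Both strands were searched for the CArG box, the binding element of serum response factor, which controls contractile genes. An exact CArG box was in 0 of the 7 windows and in 1.63% of 32851 RefSeq promoters of this length. With at most 1 departure in its A and T core it was in Acta2, at 2 positions, and in Lrat, and in 9.98% of all promoters. Acta2 is printed as 30 bases around each of these elements, on the minus strand at chr19:34255438-34255467 and chr19:34255388-34255417, with the element in capitals. The elements start at positions -84 and -34 from the RefSeq start and the GENCODE start of the gene is 217 bases further upstream. Both elements lie within the first exon (chr19:34255290-34255590) of 1 of the 2 GENCODE transcripts of Acta2. Postn is printed as the 150 bases before its start on the plus strand, chr3:54360957-54361106, with the TATA box in capitals.
Acta2, distal element: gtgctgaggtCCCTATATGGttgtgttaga
Acta2, proximal element: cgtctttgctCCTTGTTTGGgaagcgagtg
Postn: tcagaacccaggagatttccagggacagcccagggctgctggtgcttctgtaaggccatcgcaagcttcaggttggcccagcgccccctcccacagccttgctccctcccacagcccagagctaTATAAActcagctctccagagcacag

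The TATA box (TATAAA) of Postn starts at position -26 from the transcription start, and this motif was in 1 of the 7 windows and 13.6% of all promoters. The TEAD motif GGAATG was found in Lrat and Acta2 and in 14.7% of all promoters. The Smad motif CAGAC was found in Des, Hgf and Acta2 and in 49.6% of all promoters; an exact CArG box counts also among those with a departure. These matches describe letters in the windows, and binding was not measured.

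Per liver, the quiescence and the activation genes were averaged as log2 CPM (prior count 2). The 6 activation genes averaged 3.19 ± 0.385 in VDD-F1 against 2.82 ± 0.479 in VDS-F1, and the 4 quiescence genes 4.55 ± 0.181 against 4.36 ± 0.195 (SD, n = 6 each). VDS3 and VDS4 had the lowest activation means of all mice, at 2.22 and 2.37, followed by VDD1 at 2.46, and VDD2 had the highest at 3.59. The balance, activation minus quiescence, averaged -1.36 ± 0.223 for VDD-F1 livers and -1.54 ± 0.323 for those of VDS-F1 (SD, n = 6 each). The gap of 0.18 is smaller than either SD. Where a weight was recorded, the balance averaged -1.29 ± 0.0997 for the 3 VDD-F1 livers and -1.71 ± 0.241 for the 4 of VDS-F1 (SD), which are 0.42 apart, and in the other mice the difference was -0.22. Postn entered this average with a sign opposite to that of Acta2 and Ccn2 in the mice with a recorded weight.

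**Figure D4:**
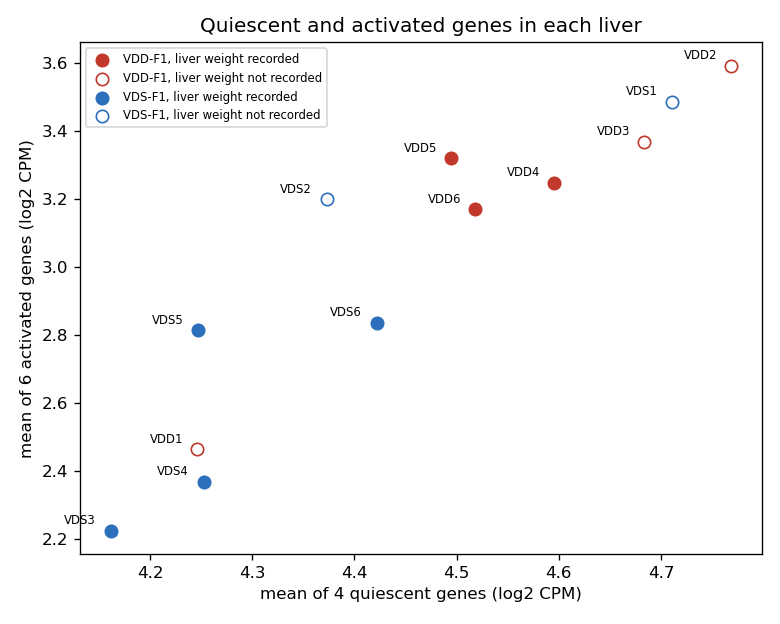
Mean of the 4 quiescence genes (x axis, log2 CPM) against the mean of the 6 activation genes (y axis, log2 CPM), 1 point per mouse, VDD-F1 in red, VDS-F1 in blue, filled where a liver weight was recorded. The filled VDD-F1 points (3.17 to 3.32 on the y axis) lie above the filled VDS-F1 points (2.22 to 2.84), and VDD1 lies with the lower VDS-F1 mice.

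Other genes linked to these roles were counted by lists taken from general knowledge of the cell types and pathways, which share some genes. These lists, too, were chosen with earlier results of these data known. In edgeR the diet comparison of all mice gave no DEG in any of these lists, and counts from edgeR are given at an unadjusted p under 0.05, to be read against the 9.55% and 6.29% of all genes above. Of 18 other activation and matrix genes tested, 16 were higher and 0 lower, with a median log2-fold change of 1.16. Among them, Col3a1, a fibrillar collagen, reached 114 ± 72.4 CPM in VDD-F1 against 33.2 ± 14.3 CPM in VDS-F1 (SD, n = 6 each). Its log2-fold change was 1.78 ± 0.40, and Col1a1 had a log2-fold change of 2.27 ± 0.53 (SE, adjusted p = 0.0855 and 0.0883 from edgeR). DESeq2 called 6 of the 18 as DEGs over all mice and voom 9, Col3a1, Col1a1, Col1a2, Fbn1, Loxl1 and Thbs2 by both tools, against the 2.03% and 2.02% of all genes given above. In the mice with a recorded weight 13 of the 18 were DEGs in edgeR, against the 4.33% of all genes tested given above. At an adjusted p under 0.05, 15 were higher and 1, Fn1, was lower, against 5.87% and 5.11% of all genes tested. Fn1, fibronectin, which hepatocytes also make, was the most abundant gene of the list, and the summed level of the list was 2274 to 2736 CPM in VDD4 to VDD6 and 3237 to 3397 CPM in VDS3 to VDS6. In the mice without a recorded weight no gene of any list had an adjusted p under 0.05 in edgeR.

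Of 15 other stellate cell genes tested, 5 were higher and 2 lower over all mice, and the median log2-fold change was 0.02. In the mice with a recorded weight 5 of the 15 were higher and 3 lower at an adjusted p under 0.05 in edgeR. Of all genes tested in this set, 5.87% were higher and 5.11% lower at this threshold. Cygb, cytoglobin, had a log2-fold change of 1.38 ± 0.35 (SE, adjusted p = 0.0970 from edgeR). Among 14 genes of retinoid storage and signalling tested, 1 was higher and 1 lower over all mice. In the mice with a recorded weight 3 of 13 were higher and 2 lower at an adjusted p under 0.05, against the same 5.87% and 5.11%. The gene lower over all mice, Aldh1a1, a retinaldehyde dehydrogenase abundant in hepatocytes, was at 688 ± 215 CPM in VDD-F1 and 1076 ± 161 CPM in VDS-F1 (SD, n = 6 each, log2-fold change -0.65, adjusted p = 0.120 from edgeR).

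In the TGF-beta pathway around Tgfb1, 7 of 24 genes were higher and 0 lower over all mice. They were led by Ltbp3, which encodes a latent TGF-beta binding protein (log2-fold change 1.31 ± 0.29), and the target gene Tgfbi (0.68 ± 0.17, SE, adjusted p = 0.0855 and 0.0969 from edgeR). In the PDGF pathway around Pdgfrb, 3 of 6 genes were higher and 0 lower, with Pdgfrl at 1.51 ± 0.44 and the ligand gene Pdgfd at 1.18 ± 0.44 (log2-fold change and SE, adjusted p = 0.127 and 0.220 from edgeR). Around Hgf, 3 of 9 genes were higher and 0 lower, among them the proteases Plau and St14 that can activate HGF or its relatives (log2-fold changes 1.24 ± 0.38 and 1.67 ± 0.59, SE, adjusted p = 0.137 and 0.194 from edgeR). In the mice with a recorded weight, 9 of the 24 TGF-beta genes were higher at an adjusted p under 0.05 in edgeR and 0 lower. Of the PDGF genes 3 of 6 were higher and 0 lower, and of the HGF genes 1 of 9 was higher and 2 lower. The shares of all genes tested in this set were 5.87% higher and 5.11% lower.

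In the YAP and TEAD list, to which Ccn2 is related as a target, 0 of 11 genes were higher or lower at an unadjusted p under 0.05 in edgeR over all mice. In the mice with a recorded weight, in which Ccn2 was higher, 0 were higher and 3 lower at this threshold. Of all 12369 genes tested in this set, 1608 were higher and 1560 lower at it. At an adjusted p under 0.05, 0 of the 11 passed in edgeR, and Amotl2 was lower by DESeq2 and by voom. The genes with the smallest p-values were Yap1 (-0.17 ± 0.08) and Wwtr1 (0.28 ± 0.15, log2-fold change and SE, adjusted p = 0.358 and 0.371 from edgeR). Of 11 partners of reelin and desmin, 3 were higher and 0 lower over all mice. In the mice with a recorded weight 1 was higher and 2 lower at an adjusted p under 0.05, against 5.87% and 5.11% of all genes. Over all mice Vim, the intermediate filament vimentin that copolymerises with desmin, had a log2-fold change of 0.99 ± 0.33. The integrin gene Itgb1 was at 0.19 ± 0.07 (SE, adjusted p = 0.167 for Vim and 0.212 for Itgb1 from edgeR).

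**Figure D5:**
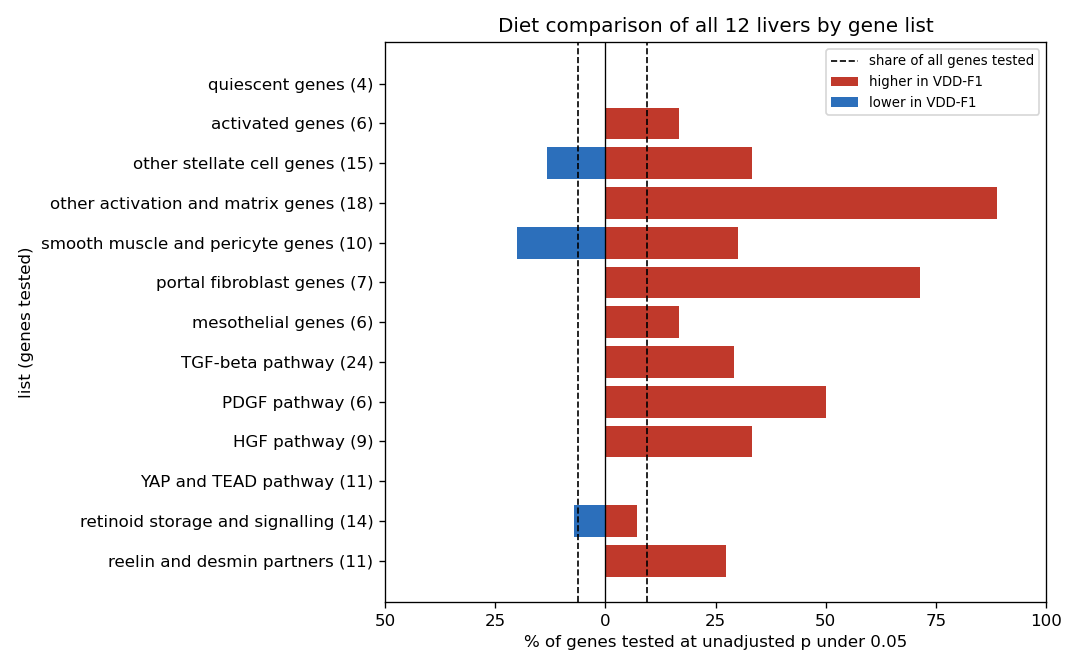
Share of the genes tested in each list that were higher (red, right) or lower (blue, left) in VDD-F1 at an unadjusted p under 0.05 in edgeR over all 12 mice, with the number tested in brackets and dashed lines at the shares of all genes tested, 9.55% and 6.29%. The other activation and matrix genes (16 of 18) and the portal fibroblast genes (5 of 7) stand furthest to the right of the lists drawn, which leave out the markers of other liver cells, and no gene of the YAP and TEAD list is called.

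Several genes above are shared with other mesenchymal cells, whose markers were counted in the same libraries. Of 10 smooth muscle and pericyte genes tested, 3 were higher and 2 lower over all mice, with Tpm1 at a log2-fold change of 0.49 ± 0.14 and Mcam at 0.58 ± 0.18 (SE, adjusted p = 0.118 and 0.134 from edgeR). In the mice with a recorded weight, Acta2 and Tagln were higher. In this set 3 of 9 genes tested were higher (Tpm1, Mcam and Notch3) and 2 lower (Tpm2 and Mylk) at an adjusted p under 0.05 in edgeR. Of all genes tested, 5.87% were higher and 5.11% lower. The summed level of the list, in which Mylk was the most abundant gene, was 162 to 178 CPM in VDD4 to VDD6 and 171 to 191 CPM in VDS3 to VDS6. Of the smooth muscle genes, Myh11, Myl9 and Lmod1 had counts in every mouse, with means of 44.4, 38.3 and 12.8 counts, while Cnn1 and Myocd had no count in 8 and 9 of the 12 mice. Of 7 portal fibroblast genes 5 were higher and 0 lower (5 DEGs by DESeq2, 3 by voom), with Mfap4 at 2.29 ± 0.46 and Eln, elastin, at 2.18 ± 0.53 (log2-fold change and SE, adjusted p = 0.0683 and 0.0917 from edgeR). The summed level of all 10 listed portal fibroblast genes was 44.6 to 48.1 CPM in VDD4 to VDD6 and 8.52 to 16.2 CPM in VDS3 to VDS6. It was thus higher in the same mice as Acta2, Tagln and Ccn2, and its part in their levels was not tested. Over all mice it ranged from 10.3 to 82.7 CPM in VDD-F1 and from 8.52 to 17.6 CPM in VDS-F1, and Gli1, Pi16 and Clec3b of this list had no count in 7, 4 and 9 mice. Of 6 mesothelial genes 1, Gpm6a, was higher and 0 lower, with Wt1 next by p (log2-fold changes 1.02 ± 0.42 and 1.35 ± 0.64, SE, adjusted p = 0.265 and 0.323 from edgeR).

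Markers of other liver cells were counted in the same way at an unadjusted p under 0.05, and none had an adjusted p under 0.05 in edgeR over all mice. Of 7 hepatocyte markers 0 were higher and 3 lower, among them Serpina1c and Cyp2e1 (log2-fold changes -0.60 and -0.75, adjusted p = 0.0855 and 0.174 from edgeR), while their summed level was higher in VDD4 to VDD6, at 98066 to 103597 CPM, than in VDS3 to VDS6, at 82286 to 91420 CPM. Of 9 sinusoidal endothelial markers 1 was higher and 2, Clec4g and Stab2, were lower, and of 5 vascular endothelial markers 1, Cd34, was higher and 0 lower. Of 8 Kupffer cell and monocyte markers 2 were higher, Ccr2 among them, and 2 lower, Timd4 among them. Of 6 cholangiocyte markers tested 3 were higher and 0 lower, including Spp1 and Epcam. The sum of all 7 listed was 60.0 to 73.0 CPM in VDD4 to VDD6 and 28.2 to 44.7 CPM in VDS3 to VDS6. Spp1, which is also in the list of other activation and matrix genes, was the most abundant of them. All 6 cycling cell markers were higher, led by Mki67 (log2-fold change 1.98, adjusted p = 0.0905) and Cenpe (2.05, adjusted p = 0.0958, both in edgeR), and 0 of 2 lymphocyte markers, Cd79a and Cd3e, were called in either direction. In the mice with a recorded weight, 5.87% of all genes tested were higher and 5.11% lower at an adjusted p under 0.05 in edgeR. At this threshold 1 of 7 hepatocyte markers was higher and 3 lower, and 2 of 8 Kupffer cell and monocyte markers were higher and 3 lower. Of the cholangiocyte markers 2 of 6 were higher, and of the cycling cell markers 2 of 4. In the same mice 1 of 5 vascular endothelial markers was higher, 1 of 9 sinusoidal endothelial markers was lower, and no lymphocyte or mesothelial gene passed in edgeR, though Wt1 was a DEG by DESeq2 and by voom. The summed level of the cycling cell markers was 15.7 to 23.0 CPM in VDD4 to VDD6 and 5.62 to 8.43 CPM in VDS3 to VDS6, without overlap. The part of these cell types in the levels of the stellate genes was not tested.

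The genes most alike to 3 of the stellate genes over the 12 libraries were named by Pearson's r of log2 CPM among 12443 genes, as a description in which all points share library and depth. For Acta2 these were Tlr3, Prss23 and Tmem185a (r = 0.924, 0.919 and 0.901). For Pdgfrb they were Spag5, Tns3 and Pck2 (r = 0.950, 0.949 and 0.947). For Lrat they were Lbr and Atp5f1 (r = 0.875 and 0.861), followed by a gene identifier without a name in the annotation used (r = 0.857). None of these 9 was in the list of other stellate cell genes. The search covered 12443 genes against 12453 tested, and whether it held the stellate genes followed here is not given. Their absence from these 9 therefore cannot be read as a result.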

How the data were processed

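RNA was from the left lateral liver lobe of 6 VDD-F1 and 6 VDS-F1 male mice, in libraries depleted of ribosomal RNA. The authors aligned reads to mm10 with STAR, whose version is not given in the sources used here, and deposited STAR's counts per gene (GENCODE M15, GRCm38). The count of fragments on the sense strand was used, since it held 92.7 to 95.8% of stranded assignments. Gene names and exon lengths came from GENCODE M21, in which 52403 of 52636 identifiers were found. Rows that name no gene (unmapped, multimapping, outside genes or ambiguous) were left out of library sizes and tests.

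Genes averaging at least 12 counts per library were tested with edgeR 4.0.16 (quasi-likelihood fit, TMM normalization, R 4.3.3). DEGs were genes with an adjusted p under 0.05 and an absolute log2-fold change over 1. DESeq2 1.42.0, limma 3.58.1 (voom) and other settings served as alternatives. The fit was tested on simulated data. CPM were computed with TMM. Fold changes and SEs are on the log2 scale. The 10 genes, the lists and the sets of mice were chosen with earlier results of these data known. In each other list the 2 genes with the smallest unadjusted p were named, and for Lrat, Acta2 and Pdgfrb the 3 genes most correlated with them. A gene that this rule would name is not reported here. Within-set and interaction alternatives were chosen after the data were seen. No 2 libraries were identical.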

Additional observations from a re-analysis of the deposited data

Results flagged for a closer look

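Ccn2 and Postn had diet differences of opposite sign in the 2 sets of mice. Every VDD-F1 mouse was on one side of the VDS-F1 mice in 1 set and on the other side in the other set. In the mice with a recorded weight 11.9% of all genes tested lay above and 11.5% below in this way. In the other mice these shares were 8.97% and 9.49%. The interaction of diet with set was 2.83 for Ccn2 and -1.66 for Postn on the log2 scale (adjusted p = 0.145 and 0.114 over all genes tested in edgeR). For Postn the separation in the 5 mice without a recorded weight rests on levels of VDD2 and VDS2 that are both 6.73 CPM when rounded. The log2-fold change of Postn in these 5 mice was 0.24 ± 0.24 (SE, adjusted p = 0.9998 from edgeR). No mouse stood apart from its group by Dixon's criterion in any of the 10 genes (20 groups of 6 tested, of which chance would give about 1 in 20).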

How the results depend on the processing

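The results over all 12 mice changed most with the choice of mice. At an unadjusted p under 0.05, 1 of the 10 genes was higher and 0 lower in edgeR over all mice, against 9.55% and 6.29% of all genes. By voom these were 4 and 1, against 12.3% and 10.5%. Where a liver weight was recorded, 5 were higher and 1 lower in edgeR, against 1608 and 1560 of all 12369 genes tested. Where none was, 0 were higher and 1 lower, against 257 and 216 of 12541. With set as a covariate 2 were higher and 1 lower. Shares of all genes are not given for this fit, the replicate block or the fits without 1 mouse. The number of DEGs among the 10 genes was 3 in the mice with a recorded weight and 1 by voom. Over all mice edgeR gave 5 DEGs among all genes, DESeq2 253 and voom 252. In lists without a DEG in edgeR, DESeq2 and voom gave 6 and 9 among the other activation and matrix genes, 5 and 3 among portal fibroblast, 3 and 2 among TGF-beta, 2 and 2 among other stellate, 3 and 1 among cycling cell, and 1 and 1 among HGF and among retinoid genes. DESeq2 also gave 1 among vascular endothelial and 1 among Kupffer cell and monocyte markers, and voom 1 among reelin and desmin partners. These counts by list were compared after the data were seen. The median of the activation genes was 0.91 where a weight was recorded, and the balance was -0.22 where none was. With a replicate block, 0 genes were higher at an unadjusted p under 0.05 (Pdgfrb 0.64, p = 0.101), and the correlation of deviations at the same number ran from -0.08 to 0.10, so the numbers do not pair the mice. Leaving out 1 mouse gave 0 to 5 genes higher (5 without VDS1, 0 without VDD2, VDD4, VDS2, VDS3, VDS4 or VDS5). It gave 3 to 6 genes at an adjusted p under 0.05 in the mice with a recorded weight (3 also in the robust fit, Ccn2 and Pdgfrb being lost), and 3 to 5 genes with an interaction at an unadjusted p under 0.05. The direction over all mice reversed in the mice without a recorded weight for Acta2 (-0.38), Ccn2 (-1.31), Lrat (-0.24), Postn (0.24) and Tagln (-0.20), in the mice with one for Reln (-0.11), by voom for Reln (-0.014), and without 1 mouse for Lrat (-0.015 to 0.23) and Reln (-0.043 to 0.16). In the mice without a recorded weight, signs also turned by voom for Des (-0.18) and Pdgfrb (-0.10), and without 1 mouse for Acta2 (-0.69 to 0.049), Des (-0.31 to 0.44), Hgf (-0.20 to 0.59), Pdgfrb (-0.41 to 1.03) and Tagln (-0.54 to 0.17). The interaction turned without 1 mouse for Hgf (-0.42 to 0.35) and Pdgfrb (-0.095 to 1.33). Causes were not tested. Tagln has no value when strand is ignored, since its mean count then falls under 12, and Acta2 has none under the filter of a mean count of 50. Counts of 9 to 103 per library limit the precision of Acta2.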
